A study of Homo sapiens with 4 samples.

Results

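Ribosome biogenesis factors are the proteins that make, cut, modify and fold ribosomal RNA and join it to ribosomal proteins without staying in the finished ribosome. The set described here holds 63 human genes, of which 52 were named one by one and 11 were taken because their symbol is UTP followed by a number. The rule that chose them uses names and no measured value, but it was set with earlier results of these data known. Of the 63 genes, 54 had at least 1 probe set annotated to that gene alone, with 104 such probe sets among the 54675 of the array, and 53 passed a filter on low signal and were tested among 14349 genes. Gene expression was measured on 4 Affymetrix arrays with total RNA of HCT116, a long-established line of human colorectal carcinoma cells. Cells grown as spheroids, rounded multicellular aggregates, were set against cells grown as a monolayer on a flat surface. Each culture was sampled once from HCT116 wt cells and once from HCT116 wt/GFP cells, whose label names GFP, a fluorescent marker protein, so a condition had 2 arrays from 2 lines. The age, size and medium of the cultures are not given in the labels, and a line and culture had no replicate array.

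Ribosomes are assembled mainly in the nucleolus. A long precursor RNA is transcribed by RNA polymerase I, guide RNAs packed in small nucleolar ribonucleoproteins (snoRNPs) direct its chemical modification, and the small and large subunits then mature along separate routes, each with its own helicases, GTPases and scaffold proteins. Growing cells spend much of their resources on this pathway, and many of its genes are known targets of the transcription factor MYC, which is highly active in colon carcinoma. The members were sorted by role into 29 small subunit factors, 20 large subunit factors, 9 snoRNP proteins and 5 other nucleolar proteins.

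Ribosome biogenesis genes fell broadly in spheroids. Of the 53 tested members, 45 were lower in spheroids than in monolayer and 0 were higher, at an adjusted p under 0.05 in limma, and at an unadjusted p under 0.05 the counts were 47 and 0. Among all genes tested, 18.5% were called lower and 30.6% higher. With moderation that does not let the variance follow brightness, 17 members were called lower and 0 higher, against 8.18% and 18.4% of all genes, and the classes' counts were 8 small subunit factors, 6 large subunit factors and 2 snoRNP proteins. A fall of at least 2-fold was met by 13 members, against 5.04% of all genes. Both spheroid arrays lay below both monolayer arrays for 49 members, against 26.5% of all genes. In both lines 49 members were lower in spheroids, against 29.4% of all genes. The median log2 change of the tested members was -0.65, while that of all genes was 0.23, so the members stood 0.88 below the median gene. In bulk RNA, fewer cells that express a gene and less RNA of that gene per cell cannot be told apart.

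**Figure D1:**
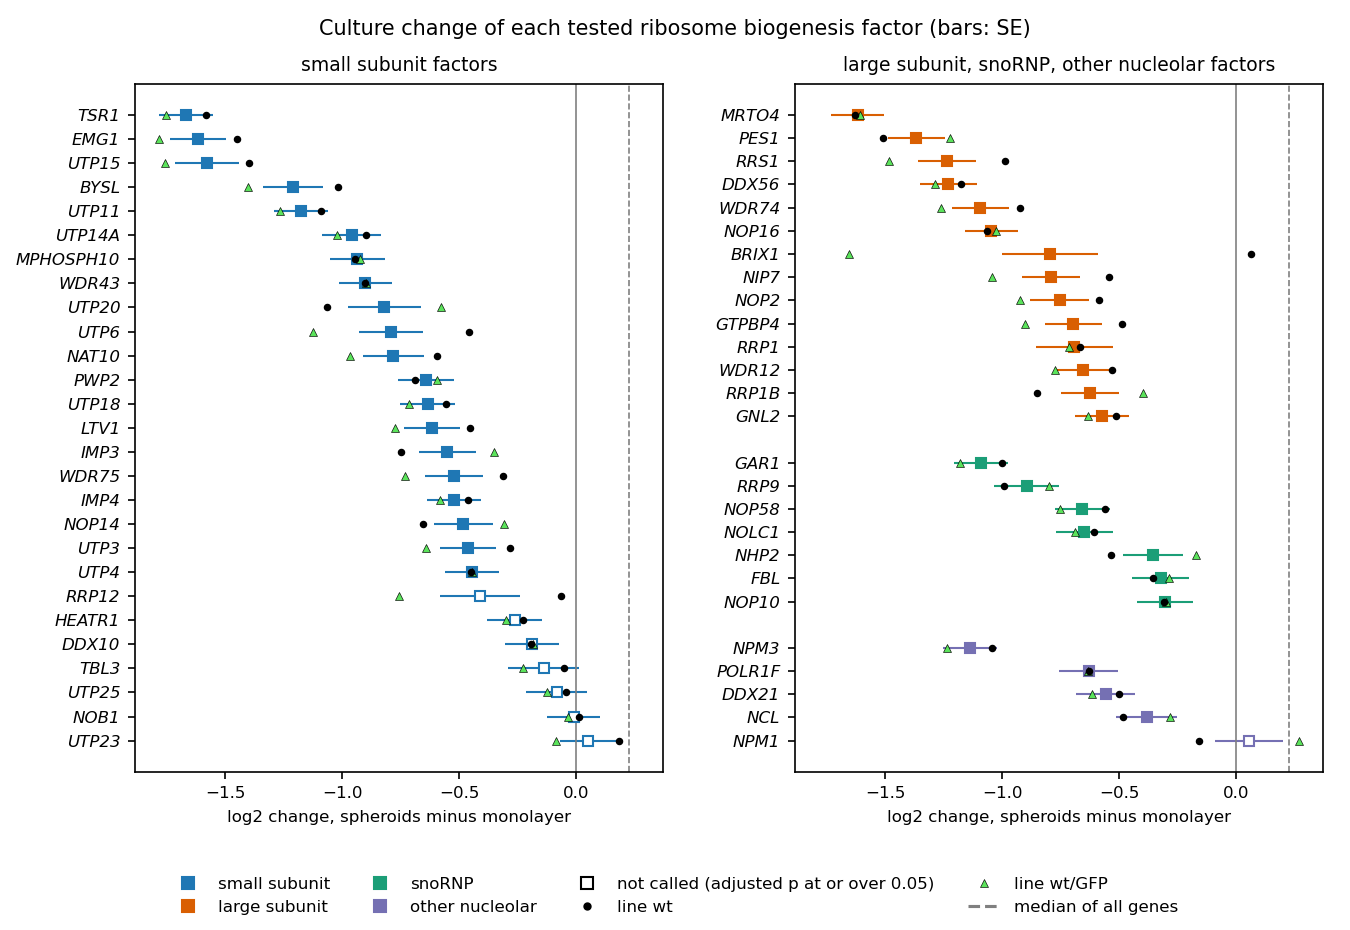
Log2 change (spheroids minus monolayer, x axis) of each tested ribosome biogenesis factor (y axis), small subunit factors on the left and large subunit, snoRNP and other nucleolar proteins on the right. Squares are fitted changes with their moderated SE, black circles and green triangles are the changes within wt and within wt/GFP, and the dashed line is the median of all genes at 0.23; 45 filled squares lie left of 0 and 8 open squares did not pass the test.

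With so few arrays, their number is what limits precision, and nothing in the labels says that they came from separate cultures. The p-values concern these samples only. Their errors rest mainly on other genes of like brightness, with 1 residual and 25.9 prior degrees of freedom. A small p-value therefore does not show that a gene's own arrays agreed. Signals are those deposited by the authors, on a linear scale with each array scaled to one trimmed mean, 500.1 on all 4, and fitted changes are differences of log2(signal + 14.0). Some technical measures moved with culture. The hybridisation controls, foreign transcripts spiked into the labelled material, had higher signals with spheroids, by 0.39 (log2, median) for the wt pair and 0.78 for the wt/GFP pair. The ACTB 3′ to 5′ signal ratio was 1.76 and 1.73 in wt and wt/GFP spheroids, against 1.32 and 1.30 in the monolayers. Their part in the falls was not tested, and the members' values after scaling to these controls are given below with those of the other scalings. Of 8 epithelial markers, EPCAM, KRT8, KRT18, KRT19, CDH1, CDX2 and VIL1 passed the filter and CDX1 did not, and the list summed to signals of 115121 and 113529 in wt and wt/GFP spheroids, against 104817 and 86417 in the monolayers. Of 6 fibroblast markers, 3 passed it (COL1A1, COL3A1 and DCN) and COL1A2, PDGFRB and LUM did not. Their list summed to signals of 2434 and 4059 in wt and wt/GFP spheroids, against 472.3 and 442.8 in the monolayers, most of it from COL1A1. Of 7 leukocyte and endothelial markers, CD3E and PECAM1 passed, PTPRC, CD14, CDH5 and VWF did not and CD68 had no named probe set, and that list summed to 320.8 and 309.4 in spheroids and 225.02 and 169 in monolayers. The part of these markers in the results was not tested.

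**Figure D2:**
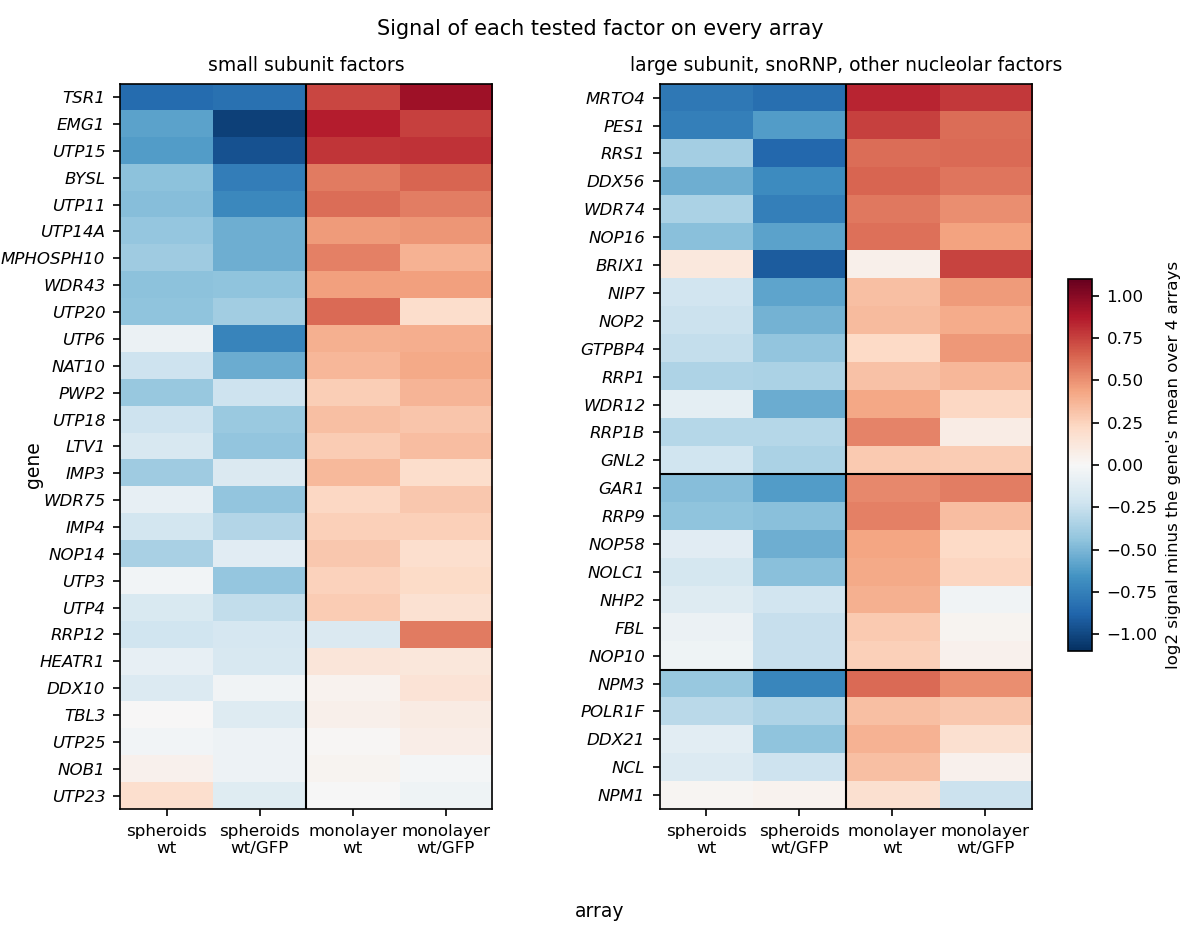
Log2 signal of each tested factor (rows) on each of the 4 arrays (columns), after subtracting the gene's mean over the arrays, with spheroids left of the black line and monolayers right of it; horizontal lines part the large subunit, snoRNP and other nucleolar proteins. For 49 of 53 genes both spheroid columns are lower than both monolayer columns, and BRIX1, NOB1, UTP23 and NPM1 are the exceptions.

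The small subunit is first built inside the SSU processome, a giant particle on the nascent RNA, and is then trimmed and exported. Of 27 tested small subunit factors, 20 fell, 0 rose and 7 did not pass, with a median log2 change of -0.62 and a range from -1.67 to 0.05. EMG1, a methyltransferase of small subunit rRNA, had signals of 4341 and 3190 in wt and wt/GFP spheroids, against 11894 and 11020 in the monolayers. Both spheroid signals were far below both monolayer signals, and the log2 change was -1.62 ± 0.12 (SE, 2 arrays per condition), or 3.07-fold lower (adjusted p = 9.05e-12, limma). UTP15, a member of the UTP-A subcomplex that binds the start of the precursor RNA, had 770.7 and 603.5 in spheroids, against 2056 and 2074 in monolayers. Its log2 change was -1.58 ± 0.14. BYSL, the human homologue of a yeast factor of late small subunit maturation, had 1486 and 1196 in spheroids and 3025 and 3185 in monolayers, a change of -1.21 ± 0.13. In both genes the monolayer signals lay close together and above both spheroid signals. UTP11 followed with 2819 and 2394 in spheroids and 6013 and 5774 in monolayers, a change of -1.18 ± 0.12. UTP14A had 1240 and 1151 in spheroids and 2324 and 2352 in monolayers, a change of -0.96 ± 0.13. In these 5 genes the cultures did not overlap, and the adjusted p-values lay between 9.05e-12 for EMG1 and 3.01e-07 for UTP14A.

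TSR1, a GTPase-like factor that holds the maturing small subunit, had the lowest fitted change of all members, but its probe sets disagreed. The probe set used had 2004 and 2038 in wt and wt/GFP spheroids, against 6028 and 6912 in the monolayers, a log2 change of -1.67 ± 0.12 (adjusted p = 3.05e-12, limma). Of its other probe sets, 1 fell by 1.31, 1 had a value of 0.091 that did not pass, and 1 rose by 0.91. The last of these had signals of 1472 and 1442 in spheroids and 868 and 681.3 in monolayers. When probe sets that can match several transcripts were left out, only this last one stood for TSR1, so the direction for the gene turned.

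Falls were spread over the subcomplexes of the SSU processome. In UTP-A, 4 of 5 members fell: UTP15, WDR43 (-0.90), WDR75 (-0.52) and UTP4 (-0.45). HEATR1, a large scaffold there, had -0.26 and an adjusted p of 0.0663 in limma. The other HEATR1 probe sets above the filter had -0.33 and -0.49, which passed, and 0.48, a dim one that did not. The outcome for HEATR1 thus depends on the probe set. In UTP-B, 3 of 4 members fell, namely UTP6 (-0.79), PWP2 (-0.64) and UTP18 (-0.63), and TBL3 had -0.14. These counts cover members of the set only and not every subunit of a subcomplex. All 3 genes of the MPP10 subcomplex fell, MPHOSPH10 by 0.94, IMP3 by 0.55 and IMP4 by 0.52. Among the other processome factors UTP20 fell by 0.82, NAT10, the acetyltransferase of small subunit rRNA, by 0.78, NOP14 by 0.48 and UTP3 by 0.46. DDX10, a helicase, had -0.19 and did not pass. Of the 5 factors of later maturation and export, TSR1, BYSL and LTV1 fell, LTV1 by 0.62. The other probe set of LTV1, a dim one, had 0.74 and did not pass, and with both averaged the log2 change of LTV1 was 0.064, so its direction depends on the probe set. RRP12, an export factor, had 563.6 and 576.8 in wt and wt/GFP spheroids, against 588.8 and 985.3 in the monolayers, where the wt/GFP monolayer stood far above the other arrays, and it missed the threshold (log2 change -0.41 ± 0.17, adjusted p = 0.0509, limma). NOB1, the nuclease that makes the final cut of small subunit rRNA, had 5295 and 4941 in spheroids and 5248 and 5053 in monolayers. The NOB1 cultures overlapped, with a log2 change of -0.0098 ± 0.11.

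UTP23 had the only positive fitted change among the small subunit factors. Its probe set had 3113 and 2507 in wt and wt/GFP spheroids, against 2733 and 2661 in the monolayers, an overlap, with a log2 change of 0.05 ± 0.12 (adjusted p = 0.76, limma). The other 3 probe sets of UTP23 had -0.74, -0.54 and -0.41, and the first 2 of these passed. UTP25 had -0.083 with the probe set used, and -0.037 and 0.059 with 2 others, none of which passed, while the last of its probe sets rose by 0.90.

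The large subunit is built through a series of nucleolar and nuclear particles, and its factors include the PeBoW complex (PES1, BOP1 and WDR12), GTPases that act as checkpoints, and helicases. All 14 tested large subunit factors fell, with a median log2 change of -0.79 and a range from -1.62 to -0.57, and 6 of them fell by at least 2-fold. MRTO4, which holds the place of a ribosomal stalk protein, had 2366 and 2301 in wt and wt/GFP spheroids, against 7359 and 7038 in the monolayers. The signals within each culture were close and those of the cultures far apart. Its log2 change was -1.62 ± 0.11, or 3.07-fold lower (adjusted p = 4.05e-12, limma), and its other probe set fell by 1.46. PES1 had 1273 and 1408 in spheroids, against 3655 and 3310 in monolayers, a change of -1.37 ± 0.12. RRS1, a factor that recruits the particle around 5S RNA in yeast, had 3061 and 2166 in spheroids and 6078 and 6091 in monolayers, a change of -1.24 ± 0.12. DDX56, a nucleolar helicase, had 1356 and 1211 in spheroids and 3080 and 2975 in monolayers, a change of -1.23 ± 0.12. In these genes the spheroid signals were all below the monolayer signals.

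WDR74, a WD repeat protein of early large subunit particles, had 2033 and 1531 in wt and wt/GFP spheroids, against 3873 and 3696 in the monolayers, a log2 change of -1.09 ± 0.12. NOP16 had 3714 and 3395 in spheroids and 7794 and 6931 in monolayers, a change of -1.05 ± 0.11. The second PeBoW gene tested, WDR12, fell by 0.65, less than PES1. The GTPases GTPBP4 and GNL2 fell by 0.70 and 0.57. NIP7 fell by 0.79 and NOP2, a methyltransferase of large subunit rRNA, by 0.75. On the probe sets used, RRP1 and RRP1B, a pair of paralogues, fell by 0.69 ± 0.16 and 0.62 ± 0.12. These changes differed by less than their errors. The other probe set of RRP1 had 0.51 and that of RRP1B had -0.28, and neither passed, so the direction for RRP1 depends on the probe set.

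BRIX1, a factor of large subunit assembly, passed the test although the lines went apart. It had 2268 in wt spheroids and 1100 in wt/GFP spheroids, against 2166 in the wt monolayer and 3497 in the wt/GFP monolayer. The cultures overlapped: the wt arrays were nearly equal and the wt/GFP arrays differed about as much as those of MRTO4. The fitted log2 change was -0.80 ± 0.21 (adjusted p = 0.00194, limma), made of 0.066 in wt and -1.66 in wt/GFP.

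A box C/D snoRNP carries fibrillarin (FBL) and directs methylation, and a box H/ACA snoRNP carries dyskerin (DKC1) and directs pseudouridylation. All 7 tested snoRNP proteins fell, with a median log2 change of -0.65 and a range from -1.09 to -0.30. GAR1, a small protein of the H/ACA core, had 2822 and 2549 in wt and wt/GFP spheroids, against 5667 and 5789 in the monolayers. The cultures were well apart, with a log2 change of -1.09 ± 0.12, or 2.13-fold lower (adjusted p = 8.55e-09, limma). RRP9, a protein of the U3 snoRNP, had 750.4 and 741.8 in spheroids, against 1508 and 1300 in monolayers, a change of -0.90 ± 0.14. NOP58, of the C/D core, had 9352 and 7031 in spheroids and 13799 and 11869 in monolayers, a change of -0.66 ± 0.12. NOLC1, a chaperone of snoRNPs, had 13810 and 11490 in spheroids and 21031 and 18544 in monolayers, a change of -0.65 ± 0.12, and its 2 other probe sets fell by 1.52 and 1.09. Both spheroid arrays were below both monolayer arrays in all 7 tested snoRNP proteins, against 26.5% of all genes.

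The remaining snoRNP core proteins fell by less and sat near the threshold. NHP2 had 14745 and 14056 in wt and wt/GFP spheroids, against 21392 and 15822 in the monolayers, where the wt monolayer alone was clearly higher. Its log2 change was -0.35 ± 0.13 (adjusted p = 0.0227, limma). FBL had 14647 and 12835 in spheroids and 18753 and 15670 in monolayers, a change of -0.32 ± 0.12 (adjusted p = 0.0299, limma). NOP10 had 12532 and 10886 in spheroids and 15535 and 13393 in monolayers, a change of -0.30 ± 0.12 (adjusted p = 0.0365, limma). For FBL and NOP10 the call was lost after quantile normalization, with adjusted p-values of 0.0589 and 0.0963. Without the cell line in the fit, 4 snoRNP proteins were called lower. The share of all genes called in that setting is not given here. Counts with an array left out are given at the end, also without that share.

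NPM3, a relative of nucleophosmin, had 4070 and 3293 in wt and wt/GFP spheroids, against 8398 and 7769 in the monolayers, without overlap. Its log2 change was -1.14 ± 0.12 (adjusted p = 3.78e-09, limma). POLR1F, a subunit of RNA polymerase I whose second probe set fell by 1.43, had 1278 and 1240 in spheroids and 1982 and 1930 in monolayers, a change of -0.63 ± 0.13. DDX21, a helicase that links transcription and processing of rRNA, had 16726 and 13348 in spheroids and 23639 and 20473 in monolayers, a change of -0.56 ± 0.12. NCL, the abundant RNA binder nucleolin, fell by 0.38 ± 0.13. NPM1, nucleophosmin, had 42034 and 42637 in spheroids, against 46917 and 35346 in monolayers, and its spheroid signals lay between its monolayer signals. Its log2 change was 0.056 ± 0.15 (adjusted p = 0.781, limma). The other probe sets of NPM1 gave -1.04, which passed, and -0.25, which did not, so the outcome for this gene depends on the probe set. NPM1 also has many processed pseudogenes whose transcripts its probe sets could share, and this was not tested.

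**Figure D3:**
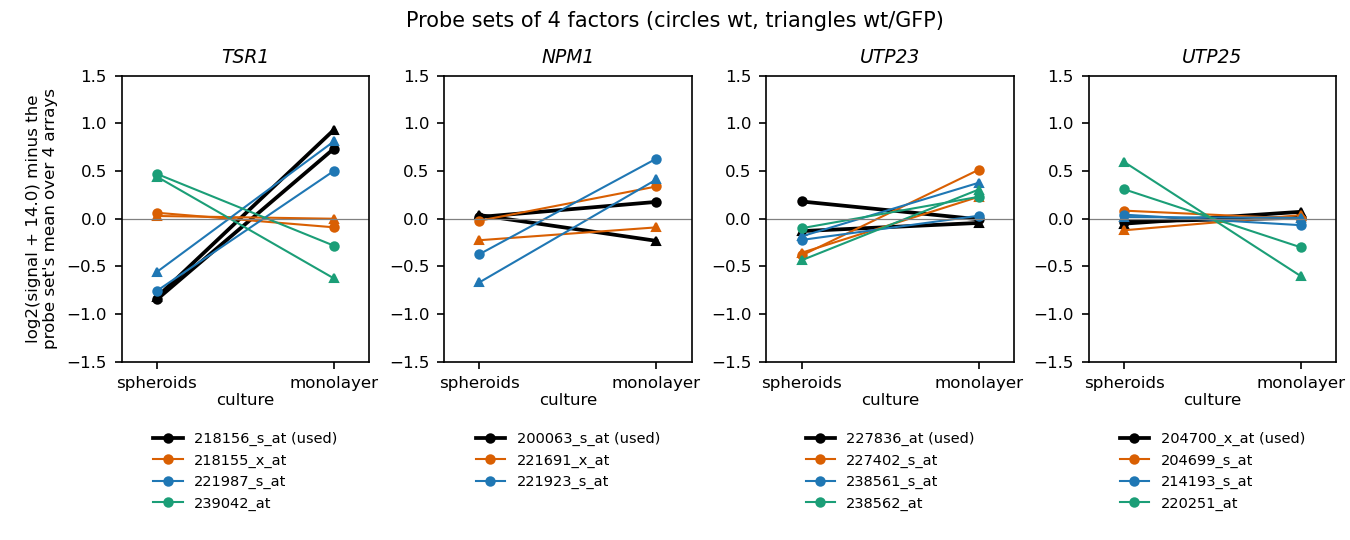
Log2 signal of each probe set that passed the filter for TSR1, NPM1, UTP23 and UTP25, after subtracting its mean over the 4 arrays (y axis), in spheroids and monolayer (x axis); circles and triangles are wt and wt/GFP, and the black lines are the probe set used. Lines that slope up from left to right are lower in spheroids; in TSR1 a pair of probe sets rises steeply to the right, 1 is flat and 1 slopes down.

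At the level of single probe sets, 93 of the members' probe sets passed the filter, and 62 were called lower, 2 higher and 29 in neither direction, against 16.1% lower and 26.6% higher of all probe sets tested. More than 1 probe set was available for 26 members. In 8 of these every probe set fell, and in 1, TSR1, probe sets were called in both directions. On the probe set used for each tested member, the lowest signal on any array was 467.6, against a filter at 30.6, while some of the other probe sets that passed had signals below 30.6 on single arrays. NOP53 was the member left out by the filter, with 119.5 and 10.2 in wt and wt/GFP spheroids and 6.56 and 15.5 in the monolayers on its single probe set. DKC1, NOP56, BOP1, PPAN, DDX47 and UTP14C were annotated only together with other genes, DKC1 and NOP56 among them with snoRNAs, and GNL3, DDX18 and EBNA1BP2 had no named probe set here. None of these 9 was analysed.

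Large subunit factors had the lowest of the class medians. Relative to the median of all genes they stood at -1.02 for large subunit factors, -0.87 for snoRNP proteins and -0.84 for small subunit factors. The differences between classes were not tested, since each class is a list of genes on the same 4 arrays. The order holds for the members only. Among further factors outside the set, described below, the median log2 change was -0.70 for 36 small subunit factors and -0.63 for 44 large subunit factors. Listed in the same order of classes, the medians were -0.76, -0.56 and -0.55 within wt, and -1.04, -0.69 and -0.71 within wt/GFP. Large subunit factors were lowest in both lines, while snoRNP proteins and small subunit factors changed places in wt/GFP. Of the 8 tested members that did not pass, 7 were small subunit factors and the last was NPM1. The change had the same sign in both lines for 49 members, and was negative in each of these 49. The median absolute difference between the lines' changes was 0.19 for members and 0.27 for all genes.

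The size of the falls moved with the scaling of the arrays. Over all genes the median log2 change stood at 0.23 as deposited, 0.019 with quantile normalization, -0.17 with arrays centred on their medians and -0.37 with arrays scaled to the hybridisation controls. Under the same 4 scalings, the median of large subunit factors was -0.79, -0.85, -1.18 and -1.39, and that of small subunit factors was -0.62, -0.55, -1.01 and -1.21. snoRNP proteins had -0.65, -0.52, -1.04 and -1.24. With quantile normalization 45 members were called lower and 0 higher, against 21% and 23.6% of all genes. With median centring the counts were 52 and 0, against 32.3% and 16.4%, and with the hybridisation controls 49 and 0, against 28.1% and 7.48%. A total of 43 members were called lower as deposited and under both of the first 2 alternatives, against 17.1% of all genes, and each of the 43 was also called lower with the hybridisation controls.

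**Figure D4:**
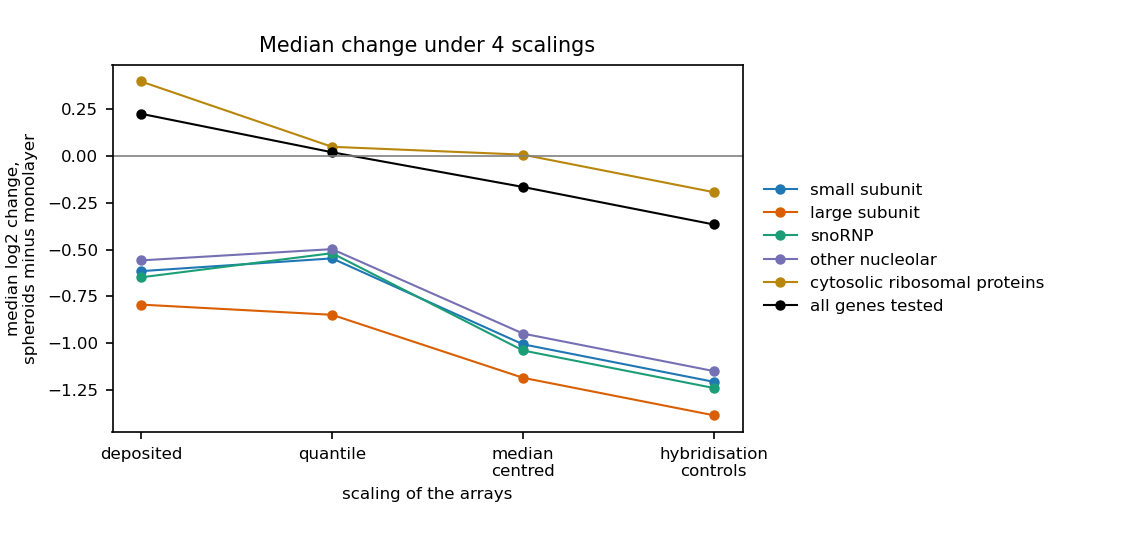
Median log2 change, spheroids minus monolayer (y axis), of each class of ribosome biogenesis factors, of cytosolic ribosomal proteins and of all genes under 4 scalings of the arrays (x axis). All class medians stay below the median of all genes under each scaling, while the cytosolic ribosomal proteins stay just above it and cross 0.

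Other genes of the pathway were taken from lists of further small and large subunit factors, snoRNP assembly factors, the RNA exosome that trims rRNA, and the factors that transcribe ribosomal RNA genes. Of 118 such genes tested, 92 fell and 2 rose, against 18.5% and 30.6% of all genes. The median log2 change of the 118 was -0.64. Of 36 further small subunit factors, 28 fell, led by TSR2 (-1.27), RRP36 (-1.26), PNO1 (-1.25) and RRP7A (-1.23), and 1 rose. That was RIOK3, a kinase of the RIO family, with 3532 and 3688 in wt and wt/GFP spheroids, against 2799 and 2644 in the monolayers, a change of 0.41 ± 0.12 that was -0.19 and not called after scaling to the hybridisation controls. Of 44 further large subunit factors, 33 fell and 0 rose, led by LAS1L (-1.45), NOL12 (-1.20), NVL (-1.18) and NLE1 (-1.14). Of 10 snoRNP assembly factors, 8 fell, led by RUVBL2 (-0.89), NUFIP1 (-0.79), SNU13 (-0.64) and NAF1 (-0.63). Of 13 exosome genes, 10 fell, led by EXOSC8 (-1.51), EXOSC2 (-1.36) and EXOSC9 (-1.33), whereas EXOSC6 rose. It had 1290 and 1296 in wt and wt/GFP spheroids, against 574.6 and 554 in the monolayers, a change of 1.18 ± 0.15 as deposited, and 0.59 with the hybridisation controls, where it was not called. Of 15 genes of ribosomal RNA transcription, 13 fell, among them the polymerase subunits POLR1E (-1.18), POLR1G (-1.08) and POLR1H (-0.96) and the promoter factor TAF1A (-1.01).

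Mitochondrial ribosomal proteins, the structural parts of the organelle's own ribosome, had a median log2 change of -0.69. Of 75 tested, 68 fell, against 18.5% of all genes. The only one called higher was MRPS6, with 10274 and 18408 in wt and wt/GFP spheroids, against 3384 and 3370 in the monolayers, a change of 2.02 ± 0.14. The cytosolic ribosomal proteins, which the members help to assemble, had a median of 0.40. As deposited, 0 of 53 fell while 37 rose, against 18.5% and 30.6% of all genes. After quantile normalization 1 was called lower and 5 higher, against 21% and 23.6% of all genes. After scaling to the hybridisation controls 2 were called lower and 0 higher, against 28.1% and 7.48% of all genes. No test was made of the difference between these lists and the members. Their median moved from above to below 0 with the scaling, whereas those of the member classes stayed below 0. Long noncoding RNAs that host snoRNAs in their introns were measured for 5 of 15 genes. EPB41L4A-AS1 had 6309 and 6555 in wt and wt/GFP spheroids, against 2944 and 3020 in the monolayers, a log2 change of 1.11 ± 0.11. ZFAS1 and SNHG32 rose by 0.96 and 0.88, SNHG17 fell by 0.96, and GAS5 had -0.026 and did not pass. After scaling to the hybridisation controls the first 3 had 0.51, 0.37 and 0.29, and none of them was called.

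**Figure D5:**
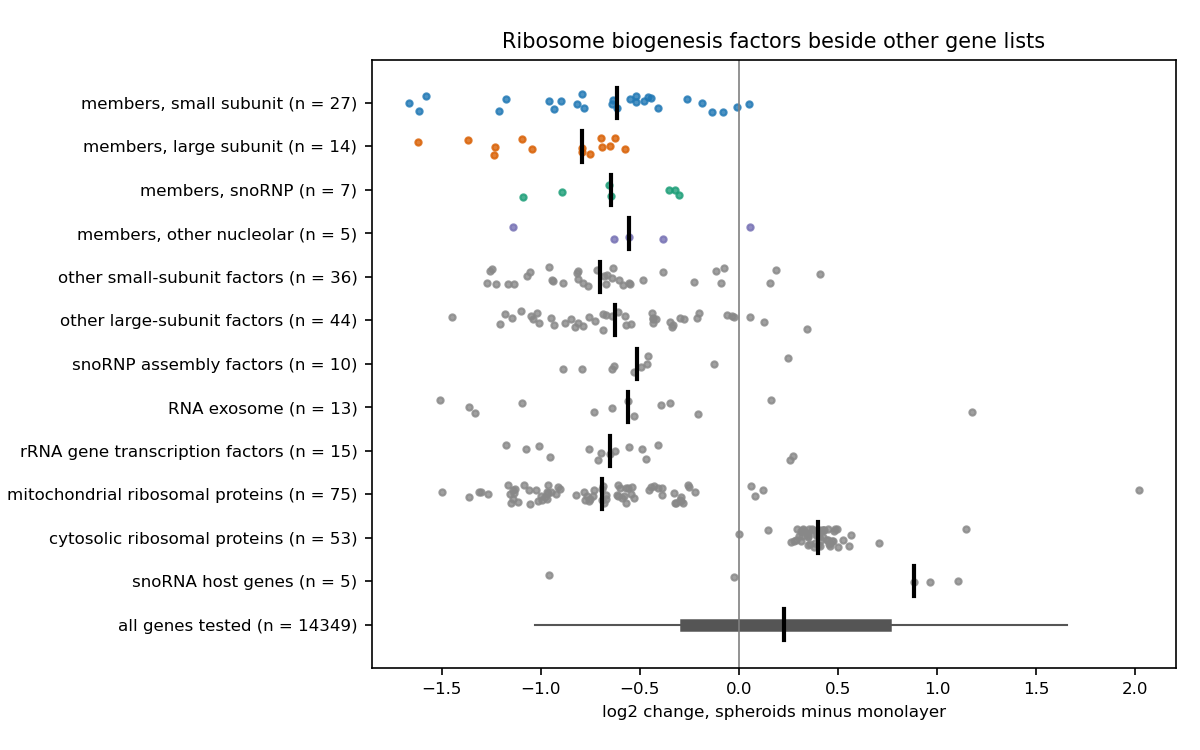
Log2 change, spheroids minus monolayer (x axis), of single genes (points) in the member classes and other lists (y axis), with black bars at list medians; for all 14349 genes the thick bar spans the quartiles and the thin line runs from percentile 5 to percentile 95. The member classes and other biogenesis lists have medians between -0.51 and -0.79, and the cytosolic ribosomal proteins have a median of 0.40 as deposited, which falls to -0.19 with the hybridisation controls.

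MYC itself did not pass the test. Its signals were 16915 and 14204 in wt and wt/GFP spheroids, against 15676 and 11313 in the monolayers, with overlap and a log2 change of 0.22 ± 0.12 (adjusted p = 0.144, limma). Of 8 genes of its network tested, 3 (37.5%) rose and 0 fell, against 30.6% of all genes called higher. The 3 that rose encode proteins that compete with MYC for its partner MAX. Of the other genes listed as antagonists, MXD3 (0.084) and MGA (0.37) were not called, nor were MAX (0.066) and MLX (-0.17). MXD1 had 586.5 and 664.9 in spheroids, against 116.9 and 90.4 in monolayers, a change of 2.45 ± 0.24. MXI1 rose by 1.95 and MNT by 0.94. Scaled to the hybridisation controls, the 3 genes had 1.86, 1.36 and 0.35, and MNT was no longer called (adjusted p = 0.423, limma), while MLX, another gene of the network, was called lower at -0.76.

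MYC and its competitors bind the palindrome CACGTG, the E-box, which reads the same on both strands, so the starts of the members were searched for it. RefSeq start sites of GRCh38.p14 were matched for 46 of the 53 tested members. CACGTG occurred in the 250 bases before any start of the gene in 8 of them, or 17.4%. Counted by gene in the same way, the share was 10.7% of 11506 tested genes and 12.5% of 2268 tested genes called lower. It was 7.73% of all 27305 genes with a start. Counted by single promoter, an unlike unit, it was 6.34% of 35116. The 8 genes were IMP4, UTP14A, UTP18, UTP20, UTP4, NAT10, NOP10 and DDX21. All 8 fell in spheroids, as did most members without the motif. The 6 of them with a match in the 100 bases just before the start are shown, since there the match lies closest to where transcription begins, with capitals marking CACGTG and each sequence running 5′ to 3′ on the gene's strand and ending just before the start.
UTP20 (chr12:101280005-101280104, plus strand): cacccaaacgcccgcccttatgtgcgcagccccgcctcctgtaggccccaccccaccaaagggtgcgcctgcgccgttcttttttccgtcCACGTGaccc
NAT10 (chr11:34105529-34105628, plus strand): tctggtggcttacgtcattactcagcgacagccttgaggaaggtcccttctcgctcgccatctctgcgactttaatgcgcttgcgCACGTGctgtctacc
UTP18 (chr17:51260446-51260545, plus strand): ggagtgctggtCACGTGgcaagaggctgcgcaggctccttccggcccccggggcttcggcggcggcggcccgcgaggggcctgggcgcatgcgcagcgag
DDX21 (chr10:68956547-68956646, plus strand): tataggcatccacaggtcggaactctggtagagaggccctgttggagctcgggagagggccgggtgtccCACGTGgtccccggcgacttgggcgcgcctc
UTP4 (chr16:69132549-69132648, plus strand): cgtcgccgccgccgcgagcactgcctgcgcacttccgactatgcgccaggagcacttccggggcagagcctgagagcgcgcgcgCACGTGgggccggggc
NOP10 (chr15:34343137-34343236, minus strand): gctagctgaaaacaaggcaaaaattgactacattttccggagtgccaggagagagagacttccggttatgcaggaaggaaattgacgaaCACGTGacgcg

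Counted from the start, with -1 as the last base before it, the motif began at -10 in UTP20, -11 in NOP10, -15 in NAT10, -16 in UTP4, -31 in DDX21 and -89 in UTP18. NOP10 held a second copy at -170, outside the stretch shown, and IMP4 and UTP14A held theirs at -203 and -241. DDX21 has 2 annotated starts, and the stretch shown belongs to the one with the motif. The log2 changes of the 6 genes, in the order printed, were -0.82, -0.78, -0.63, -0.56, -0.45 and -0.30. UTP20 had 594.4 and 619.7 in wt and wt/GFP spheroids, against 1258 and 930.1 in the monolayers, and NAT10 had 1307 and 1045 in spheroids, against 1980 and 2057 in the monolayers. A match of letters is a description of the sequence and does not show that a factor was bound in these cells.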

How the data were processed

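Total RNA was labelled with biotin from an input of 2 micrograms, per the labels' protocols. The deposited table holds 1 intensity per probe set and array, a MAS5 signal per the submitters' processing notes; its version and settings were not given in the sources used here. Gene names came from the array platform's annotation, with symbols updated by gene identifier; those with several symbols were passed over. Values were taken as log2(signal + 14.0), the 25th percentile of all signals, so changes of dim genes are understated. Probe sets with a mean above the 40th percentile (signal 30.6) were kept, 32768 in all, and each gene took its brightest. limma 3.58.1 in R 4.3.3 fitted culture and cell line over the 4 arrays with a variance trend (1 residual and 25.9 prior degrees of freedom), so errors rest mainly on other genes of like brightness. P-values are two-sided, with Benjamini-Hochberg adjustment over 14349 genes. The residual is the disagreement between lines and may be partly technical. The pairing comes from the labelled cell line; the line difference in monolayers and in spheroids correlated at 0.00684 across genes. The fit was tested on simulated data in which 200 of 14349 genes changed, far fewer than were called here. It recovered 67% of 2-fold and 90% of 4-fold changes, with 0 in the wrong direction and 13 false calls.

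Every member could be named. Array values were given for the 6 most changed small subunit, large subunit and snoRNP members, the 3 most changed others, and any member with a positive change; of each list, up to 4 genes, those called against the list's median, and MYC. Other genes given by array were chosen after their values were seen. Members, classes and lists were chosen with earlier results of these data known. Alternatives were other scalings, pseudocounts, filters, probe set choices and moderation, no line term, and leaving out each array.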

Additional observations from a re-analysis of the deposited data

Results flagged for a closer look

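In 4 members the lines moved in opposite directions between the cultures, and this difference was not tested, since each line had 1 array per culture. BRIX1 had a log2 change of -1.66 in wt/GFP and 0.066 in wt, a difference (wt/GFP minus wt) of -1.72, against a value at percentile 95 of absolute line differences over all genes of 1.44. NPM1 had 0.27 in wt/GFP and -0.16 in wt, a difference of 0.43. UTP23 had -0.086 in wt/GFP and 0.19 in wt, a difference of -0.27. NOB1 had -0.032 in wt/GFP and 0.013 in wt, a difference of -0.045. Opposite signs occurred in 19.2% of all genes.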

How the results depend on the processing

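Moderation without a variance trend cut the members called lower to 17, against 8.18% of all genes, with 8 small subunit factors, 6 large subunit factors and 2 snoRNP proteins. With the probe sets of each gene averaged, the counts were 40 members, 18 small subunit factors and 10 large subunit factors. Without a filter 4 snoRNP proteins were called lower, and likewise 4 with no replicate block, where 41 members were called lower. With 1 array per line and culture, the fitted changes are the same with and without the line term. Only their errors could differ, so this setting could not turn a direction. Quantile normalization moved the medians relative to all genes to -0.57 for small subunit factors, -0.54 for snoRNP proteins and -0.62 for all members. Without probe sets that can match several transcripts, only 44 members were tested. Of these, 36 were called lower and 2 higher, TSR1 (0.91) and UTP25 (0.90), and TBL3 had 1.03 and RRP12 0.56. The share of all genes called is not given here for this setting. The same holds for averaged probe sets, no filter, no replicate block and arrays left out, so these counts lack that comparison. Leaving out 1 array at a time dropped the line term. It gave 36 to 44 members lower and 0 higher, 17 to 21 small subunit factors, 13 to 14 large subunit factors and 2 to 7 snoRNP proteins, with 4 without the wt monolayer or the wt spheroids and 2 without the wt/GFP spheroids. The medians relative to all genes then spanned -1.02 to -0.83 for members, -0.94 to -0.76 for small subunit factors, -1.29 to -0.88 for large subunit factors and -1.03 to -0.67 for snoRNP proteins.

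Directions turned for single genes. When the probe sets of each gene were averaged, TBL3 had 0.44, UTP25 0.21, UTP23 -0.41 and NPM1 -0.41, and the log2 change of LTV1 was 0.064. Median centring gave -0.34 for UTP23 and -0.33 for NPM1, the hybridisation controls -0.54 for both, and quantile normalization 0.15 for NOB1 and -0.30 for NPM1. Leaving out an array at a time spanned -0.060 to 0.040 for the log2 change of NOB1, -0.15 to 0.26 for NPM1 and -0.10 to 0.21 for UTP23. Single other probe sets gave 0.64 for DDX56, 0.18 for GTPBP4, 0.48 for HEATR1, 0.74 for LTV1, -0.25 and -1.04 for NPM1, 0.51 for RRP1, 0.56 for RRP12, 1.03 for TBL3, 0.091 and 0.91 for TSR1, 0.052 for UTP14A, -0.74, -0.41 and -0.54 for UTP23, 0.059 and 0.90 for UTP25 and 0.44 for WDR12. The cause was not tested. BYSL, EMG1, GAR1, MPHOSPH10, MRTO4, NOP16, NPM3, PES1, RRP9, RRS1, UTP11, UTP15, WDR43 and WDR74 were called lower under every alternative setting that held them, 16 in all, except that UTP11 had no value without shared probe sets.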

Other observations

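The array also carries control probe sets for the ribosomal RNAs themselves, which lie outside the gene-level fit and were looked at after the members' values were seen. The middle 18S rRNA probe set had signals of 12463 and 13281 in wt and wt/GFP spheroids, against 23959 and 19438 in the monolayers, log2 differences of -0.94 and -0.55. The 3′ probe set had 12219 and 13862 in spheroids and 20709 and 19418 in monolayers, differences of -0.76 and -0.49. The 5′ probe set had 30395 and 30211 in spheroids and 39452 and 30698 in monolayers, differences of -0.38 and -0.023. For 28S rRNA the 5′ and middle probe sets had differences of -0.47 and -0.26 in wt and of -0.14 and -0.10 in wt/GFP. The 3′ probe set of 28S rRNA was dim, at 73.7 and 52.1 in spheroids and 32.6 and 19.3 in monolayers. The label protocol does not say how much ribosomal RNA enters the labelled material, so these signals are no measure of ribosome content.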
